A study of Mus musculus with 35 samples.

Results

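The 10 genes described here take up, break down, store or move the haem and iron that blood leaves in a tissue: Hpx, Cd163, Hmox1, Blvrb, Fth1, Ftl1, Slc40a1, Cp, Tfrc and Slc11a1. They were chosen by name because bleeding can follow brain injury, as the genes of the deposited expression table whose symbol is on this list. All 10 names were found among the 21203 genes of the table, and all 10 passed the filter on low counts.

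When red cells leak into brain tissue and break open, free haemoglobin is bound by haptoglobin and taken up by macrophages through Cd163, and free haem is bound by haemopexin. Inside the cell, haem oxygenase opens the haem ring and releases iron and biliverdin, and biliverdin reductases turn biliverdin into bilirubin. The iron is stored in ferritin, made of heavy and light chains, or leaves through ferroportin, after which ceruloplasmin oxidises it so that transferrin can carry it to cells that bear the transferrin receptor.

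The study asked how mesenchymal stromal cells (MSCs) carrying synthetic interleukin-4 (IL-4) mRNA change the brain after closed head injury, a blow to the intact skull. RNA was sequenced from a block of the left hemisphere around the injection site, which the labels call left cortex. All mice were male C57BL/6NCrl and 8 to 9 weeks old when procedures began. Injured mice received their treatment in the left hippocampus 5 days after injury.

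The Sham group held 5 mice with neither injury nor injection, 2 of them sampled with the mice of 1 week and 3 with those of 3 weeks. At 1 week post-injury (wpi), 2 days after the injection, there were 5 injured mice given phosphate-buffered saline (PBS), 5 given naïve MSCs and 5 given MSCs expressing IL-4 (IL-4 MSCs). At 3 wpi, 16 days after the injection, there were 4 PBS mice, 5 MSC mice and 5 IL-4 MSC mice. The MSCs were primary cells bought from a vendor and came from mice of the same strain. Because Sham mice had neither the injury nor the injection, the effects of injury and injection cannot be told apart in a comparison with Sham. Depth ran from 29838423 to 41554322 estimated counts per library (34 libraries, median 32655330). A count of 3, the upper limit that a count of 0 allows, was 0.0722 to 0.101 CPM (the count scaled to the total of its library). That limit covers counting error only.

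A few libraries stood apart from the rest of their group. In MSC mouse 5 at 3 wpi, Cp was at 76.7 CPM against 18.8 to 20.7 CPM in the other 4 mice of that group. The same mouse had the highest summed level of the perivascular and border macrophage markers in its group, 80.9 CPM against 36.0 to 44.0 CPM, and of the neutrophil markers, 22.6 CPM against 7.77 to 12.01 CPM. Sham mouse 5 had a summed macrophage marker level of 247 CPM against 160 to 174 CPM in the other 4 Sham mice, and MSC mouse 3 at 1 wpi had 457 CPM against 354 to 370 CPM. Markers of the cortex layers were present in each of the 7 groups, with group means of 727 to 912 CPM summed over 10 genes. Markers of the striatum were also present, and 11 of 13 were higher in IL-4 MSC mice at 3 wpi than in Sham (4.27% of all genes passed), with sums of 2069 ± 981 CPM (SD, n = 5) and 811 ± 390 CPM (SD, n = 5). The Sham sums of the striatum markers were 399 and 387 CPM in the mice of 1 week. They were 976, 1091 and 1203 CPM in the Sham mice of 3 weeks. IL-4 MSC mouse 2 at 3 wpi had 588 CPM, and the others of its group had 1966 to 3295 CPM. Hippocampus markers lay the other way in the IL-4 MSC mice at 3 wpi, with 3 of 10 lower and 0 higher. Their sums were 402, 657, 431, 467 and 481 CPM, so that 4 of the 5 mice were below every Sham mouse (506 to 640 CPM).

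In TPM, which also takes account of transcript length, the 10 genes covered a wide range. The median over the 34 libraries was 4107 TPM for Fth1 and 562 TPM for Ftl1, the ferritin chains. Tfrc followed at 56.9 TPM, Cp at 14.1 TPM and Blvrb at 12.1 TPM. Hmox1 was at 7.21 TPM, Slc40a1 at 6.38 TPM, Slc11a1 at 4.18 TPM, Cd163 at 2.21 TPM and Hpx at 0.566 TPM. This median spans groups in which Hmox1 differs widely, and in the Sham mice alone Slc40a1 (mean 6.28 TPM) stood before Hmox1 (mean 4.43 TPM). In the Sham mice Cp (9.85 to 15.3 TPM) and Blvrb (9.95 to 11.7 TPM) overlapped. Slc40a1 (5.72 to 6.93 TPM) and Hmox1 (3.24 to 6.12 TPM) also overlapped in Sham. Slc11a1 (1.65 to 3.79 TPM) overlapped with both Hmox1 and Cd163 (1.49 to 2.20 TPM).

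At 1 wpi, 3 of the 10 genes were higher in PBS mice than in Sham, beside 13.8% of all 17131 genes tested that passed an adjusted p of 0.05 in either direction. In MSC mice 4 of the 10 were higher and 1 was lower than in Sham, beside 17.8% of all genes. In IL-4 MSC mice 8 of the 10 were higher and 0 lower, beside 37.0% of all genes. The median log2 fold change of the 10 genes was 0.50 in PBS, 0.43 in MSC and 1.06 in IL-4 MSC mice, and over all genes tested it was -0.005, -0.008 and -0.018. The 3 comparisons share the same Sham mice. In this bulk tissue, more cells of a type and more RNA per cell cannot be told apart.

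**Figure D1:**
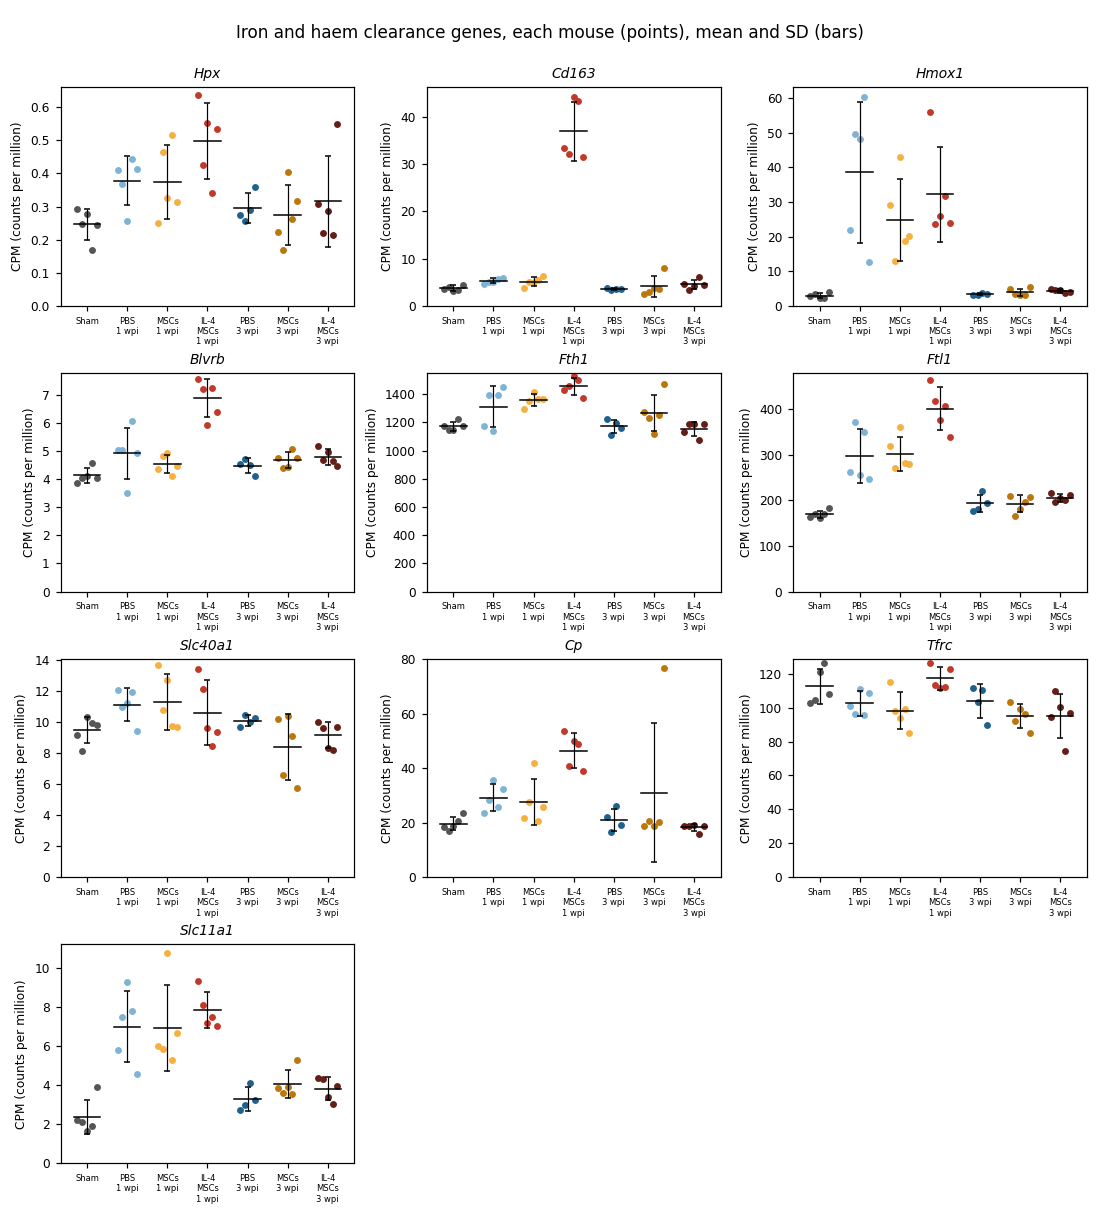
Level of each of the 10 genes in CPM (linear axis from 0) in each of the 34 mice, with 1 panel per gene and 1 column per group. Points are mice, horizontal lines are group means and bars are SD; the IL-4 MSC mice at 1 wpi reach 31.5 to 44.1 CPM of Cd163, and Hmox1 lies at 12.7 CPM or above in each injured mouse at 1 wpi.

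Cd163 and Hpx act on haemoglobin and haem outside the cell. Cd163 (ENSMUSG00000008845, chr6:124304656-124330527, GRCm38, plus strand) encodes the receptor for haemoglobin bound to haptoglobin, carried by macrophages. In the Sham mice it was at 3.65, 4.09, 3.09, 3.33 and 4.51 CPM. At 1 wpi it was at 4.69, 5.12, 5.09, 5.77 and 5.90 CPM in PBS mice. MSC mice had 3.73, 5.05, 5.03, 5.43 and 6.40 CPM. IL-4 MSC mice stood far above these groups, with no overlap. Their values were 33.5, 32.0, 44.1, 43.3 and 31.5 CPM, a mean of 36.9 ± 6.28 (SD, n = 5).

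Against Sham, Cd163 rose in IL-4 MSC mice by a log2 fold change of 3.24 ± 0.20 (SE), or 9.42-fold, with an adjusted p of 3.75e-14. In PBS mice the log2 fold change was 0.48 ± 0.20 (SE) with an adjusted p of 0.125, although each of the 5 PBS mice was above every Sham mouse. When the fit held these 2 groups alone, that adjusted p was 0.0177, in a range of 0.0177 to 0.233 over 18 alternatives. In MSC mice the log2 fold change was 0.41 ± 0.20 (SE), with an adjusted p of 0.177 and overlapping groups. By 3 wpi the group means were back at 3.53 ± 0.17 CPM in PBS (SD, n = 4), 4.14 ± 2.19 CPM in MSC (SD, n = 5) and 4.52 ± 1.02 CPM in IL-4 MSC mice (SD, n = 5). The highest of these 14 mice, MSC mouse 5, had 7.94 CPM.

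The markers of perivascular and border macrophages moved with Cd163, which is not on that list. Summed over the 10 genes, they were at 252, 205, 216, 243 and 206 CPM in the IL-4 MSC mice at 1 wpi. In the PBS mice the sums were 58.2, 83.3, 82.5, 70.5 and 67.1 CPM, and in the MSC mice 74.6, 66.7, 98.3, 62.6 and 69.4 CPM. Sham mice had 37.4, 29.2, 34.01, 37.3 and 51.1 CPM. Each IL-4 MSC mouse was thus above every mouse of the other groups. Stab1 had the highest mean CPM of the list over the 34 libraries, and no gene of the list was at 0 in all mice of a group. At 1 wpi Stab1 had a mean of 45.3 CPM in PBS and 71.5 CPM in IL-4 MSC mice. The means of the whole list were 72.3 and 224 CPM, so other genes of the list made up most of that difference. The list holds Mrc1, whose protein the paper describes as a macrophage marker stimulated by IL-4. On this list 8 of 10 were above Sham in IL-4 MSC mice by the test (37.0% of all genes passed), 7 were higher than in PBS mice (17.4% of all genes) and 7 were higher than in MSC mice (8.69% of all genes). Against Sham, 3 of 10 were higher and 0 lower in PBS mice (13.8% of all genes). In MSC mice 5 were higher and 0 lower than in Sham (17.8% of all genes). The part of perivascular and border macrophages in the level of Cd163 was not tested.

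Hpx (ENSMUSG00000030895, chr7:105591613-105600137, GRCm38, minus strand) encodes haemopexin, the carrier of free haem. It had only 6 to 21 counts in a library, so that its level is known less exactly than those of the others. The Sham mice had 0.292, 0.246, 0.279, 0.169 and 0.244 CPM. At 1 wpi the IL-4 MSC mice had 0.637, 0.424, 0.553, 0.341 and 0.534 CPM, each above every Sham mouse. The log2 fold change was 0.95 ± 0.26 (SE), with an adjusted p of 0.00417. PBS mice ranged from 0.256 to 0.442 CPM and MSC mice from 0.250 to 0.516 CPM, and both groups overlapped with Sham. Their log2 fold changes of 0.59 and 0.55 had adjusted p of 0.153 and 0.172. At 3 wpi Hpx was at 0.258 to 0.361 CPM in PBS, 0.168 to 0.406 CPM in MSC and 0.215 to 0.55 CPM in IL-4 MSC mice, overlapping with Sham.

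Inside the cell, Hmox1 (ENSMUSG00000005413, chr8:75093621-75100589, GRCm38, plus strand) encodes the inducible haem oxygenase, which opens the haem ring. In Sham it was at 2.96, 3.29, 2.17, 2.41 and 4.06 CPM. At 1 wpi the PBS mice had 21.8, 49.6, 48.3, 60.2 and 12.7 CPM. MSC mice had 29.1, 12.9, 43.1, 18.7 and 20.1 CPM. Each injured mouse was above every Sham mouse, and the mice of a group differed several-fold among themselves. IL-4 MSC mice had 55.9, 23.6, 25.9, 31.6 and 23.8 CPM, within the range of the PBS mice.

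Against Sham, Hmox1 rose by a log2 fold change of 3.67 ± 0.36 (SE), or 12.7-fold, in PBS mice (adjusted p of 2.04e-08). In MSC mice it rose by 3.02 ± 0.35 (SE), with an adjusted p of 1.84e-07, and in IL-4 MSC mice by 3.37 ± 0.36 (SE), with an adjusted p of 3.03e-09. Among the injured groups no comparison of Hmox1 passed at 1 wpi, which does not show that they are equal. The log2 fold change of IL-4 MSC over PBS mice was -0.30 ± 0.30 (SE, with an adjusted p of 0.565), that of IL-4 MSC over MSC mice 0.35 ± 0.30 (SE, adjusted p of 0.581) and that of MSC over PBS mice -0.65 ± 0.30 (SE, adjusted p of 0.996). At 3 wpi the 14 injured mice had 2.99 to 5.32 CPM and overlapped with Sham.

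Blvrb (ENSMUSG00000040466, chr7:27447978-27466144, GRCm38, plus strand) encodes biliverdin reductase B, which acts on biliverdin and flavins. Sham mice had 3.87, 4.06, 4.12, 4.57 and 4.06 CPM. At 1 wpi the IL-4 MSC mice had 7.57, 7.21, 5.93, 7.23 and 6.41 CPM, each above every Sham mouse and every MSC mouse. PBS mice had 5.04, 5.03, 3.52, 6.07 and 4.92 CPM, and MSC mice 4.36, 4.82, 4.92, 4.13 and 4.48 CPM. Only the highest PBS mouse reached the range of the IL-4 MSC mice. The log2 fold change of IL-4 MSC mice over Sham was 0.66 ± 0.09 (SE), or 1.58-fold, with an adjusted p of 6.17e-07. Against Sham the PBS mice had 0.21 ± 0.09 (SE) with an adjusted p of 0.136, and the MSC mice 0.09 ± 0.09 (SE) with an adjusted p of 0.606. Without PBS mouse 3, the log2 fold change in PBS mice was 0.31 and its adjusted p 0.00794, in a range of 0.00794 to 0.605 over 18 alternatives. At 3 wpi Blvrb was at 4.47 ± 0.267 CPM in PBS (SD, n = 4), 4.69 ± 0.274 CPM in MSC (SD, n = 5) and 4.78 ± 0.286 CPM in IL-4 MSC mice (SD, n = 5).

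The ferritin chains store the iron. Ftl1 (ENSMUSG00000050708, chr7:45457944-45459884, GRCm38, minus strand), the light chain, was at 163.8, 169, 160.9, 169.6 and 182 CPM in Sham mice. At 1 wpi it was at 262, 372, 256, 350 and 248 CPM in PBS mice and at 318, 271, 360, 282 and 280.2 CPM in MSC mice. IL-4 MSC mice had 464, 419, 376, 407 and 339 CPM. All 15 injured mice were above every Sham mouse, and the IL-4 MSC mice were the highest as a group but overlapped with both others.

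Ftl1 rose against Sham by a log2 fold change of 0.78 ± 0.10 (SE, with an adjusted p of 6.51e-07) in PBS mice. It rose by 0.79 ± 0.10 (SE, adjusted p of 2.82e-07) in MSC mice and by 1.17 ± 0.10 (SE), or 2.25-fold, in IL-4 MSC mice (adjusted p of 1.29e-11). At 3 wpi the means were 194 ± 19.2 CPM in PBS (SD, n = 4), 193 ± 18.7 CPM in MSC (SD, n = 5) and 206 ± 8.58 CPM in IL-4 MSC mice (SD, n = 5). Each IL-4 MSC mouse at 3 wpi was still above every Sham mouse, but the log2 fold change of 0.27 ± 0.10 (SE) had an adjusted p of 0.0942. With these 2 groups alone in the fit that p was 0.0135, in a range of 0.0135 to 0.554 over 18 alternatives.

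Fth1 (ENSMUSG00000024661, chr19:9980598-9985098, GRCm38, plus strand), the heavy chain, which oxidises the iron as it enters ferritin, changed less. It ranged from 1142 to 1220.0 CPM in Sham, from 1139 to 1453 CPM in PBS, from 1293 to 1416 CPM in MSC and from 1372 to 1527 CPM in IL-4 MSC mice at 1 wpi. The ranges of both MSC groups lay above that of Sham, while the PBS mice overlapped with Sham. Over Sham the log2 fold change was 0.24 ± 0.06 (SE) in IL-4 MSC mice, with an adjusted p of 0.000799. In PBS mice it was 0.13 ± 0.06 (SE) with an adjusted p of 0.143. Without PBS mouse 3 this was 0.17 with an adjusted p of 0.0336, in a range of 0.0336 to 0.517 over 18 alternatives. At 3 wpi Fth1 was at 1171 ± 46.6 CPM in PBS (SD, n = 4), 1269 ± 128 CPM in MSC (SD, n = 5) and 1154 ± 51.3 CPM in IL-4 MSC mice (SD, n = 5).

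In MSC mice the log2 fold change of Fth1 over Sham was 0.17 ± 0.06 (SE) with an adjusted p of 0.0362. This passed the threshold in 11 of 18 alternatives, whose adjusted p ranged from 0.00272 to 0.257. The adjusted p of Fth1 was 0.0772, 0.0515 and 0.0568 without Sham mouse 2, 3 or 5, and 0.0895, 0.0573 and 0.0633 without MSC mouse 3, 4 or 5. With the 2 Sham mice sampled at 1 week as the only controls it was 0.257.

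Of the genes that let iron out of the cell, Slc40a1 showed no change that passed the test in any comparison. It encodes ferroportin, the iron exporter (ENSMUSG00000025993, chr1:45908068-45926523, GRCm38, minus strand), and ranged from 5.75 to 13.7 CPM over the 34 mice. At 1 wpi its log2 fold change over Sham was 0.19 ± 0.13 (SE) in PBS, 0.21 ± 0.13 (SE) in MSC and 0.09 ± 0.13 (SE) in IL-4 MSC mice. The difference between MSC mice at 3 wpi and 1 wpi came closest, with a log2 fold change of -0.40 ± 0.13 (SE) and an adjusted p of 0.0738. That p was 0.0454 by DESeq2, 0.0422 with library size alone as the scale, 0.0459 with a replicate block, and 0.0331 and 0.0366 without MSC mouse 1 or 3 at 3 wpi. Its range over 17 alternatives was 0.0331 to 0.273.

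Cp (ENSMUSG00000003617, chr3:19957054-20009145, GRCm38, plus strand) encodes ceruloplasmin, the copper oxidase that loads exported iron onto transferrin. Sham mice had 18.4, 17.1, 19.0, 20.5 and 23.5 CPM. At 1 wpi PBS mice had 23.6, 28.3, 35.9, 25.9 and 32.3 CPM, and MSC mice 21.9, 27.8, 41.8, 20.8 and 25.8 CPM. IL-4 MSC mice had 53.8, 40.9, 50, 49.1 and 38.9 CPM. They were above every Sham and PBS mouse, and MSC mouse 3 alone among the MSC mice reached their range.

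Over Sham, Cp had a log2 fold change of 1.17 ± 0.27 (SE), or 2.24-fold, in IL-4 MSC mice, with an adjusted p of 0.000696. In PBS mice it was 0.53 ± 0.27 (SE) with an adjusted p of 0.205, although all 5 mice were above Sham. With these 2 groups alone in the fit that p was 0.0109, in a range of 0.0109 to 0.421 over 18 alternatives. In MSC mice it was 0.44 ± 0.27 (SE) with an adjusted p of 0.288. At 3 wpi Cp was at 16.5 to 26.0 CPM in PBS and 15.95 to 19.3 CPM in IL-4 MSC mice, both overlapping with Sham. The MSC mice had 18.8, 20.7, 18.8, 20.2 and 76.7 CPM. Their log2 fold change over Sham was 0.64 ± 0.27 (SE, adjusted p of 0.333), and without mouse 5 it was -0.02 (adjusted p of 0.981). The adjusted p ranged from 0.186 to 0.981 over 18 alternatives.

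Tfrc and Slc11a1 bring iron into the cytosol, Tfrc from transferrin at the cell surface and Slc11a1 from the phagosome of macrophages. Tfrc (ENSMUSG00000022797, chr16:32608920-32632794, GRCm38, plus strand) stayed within 74.2 to 126 CPM over the 34 mice. At 1 wpi the group ranges were 95.4 to 111 CPM in PBS, 84.9 to 115 CPM in MSC and 112 to 126 CPM in IL-4 MSC mice, beside 103 to 126 CPM in Sham. The MSC mice were lower than Sham by the test although the groups overlapped, with a log2 fold change of -0.24 ± 0.08 (SE) and an adjusted p of 0.0416. This passed in 9 of 18 alternatives, whose adjusted p ranged from 0.0114 to 0.153. Against the 2 Sham mice of 1 week alone the value of Tfrc in MSC mice was -0.40, with an adjusted p of 0.0114. Without Sham mouse 1, 3 or 4 it was 0.0518, 0.153 and 0.135, and without MSC mouse 2, 3, 4 or 5 it was 0.0788, 0.109, 0.0679 and 0.118. With library size alone as the scale it was 0.118, and with these 2 groups alone in the fit 0.0855. In PBS mice the log2 fold change of Tfrc was -0.17 ± 0.08 (SE, with an adjusted p of 0.193) and in IL-4 MSC mice -0.01 ± 0.08 (SE, adjusted p of 0.928). Against the 2 Sham mice of 1 week alone, the PBS value was -0.33 with an adjusted p of 0.0462, in a range of 0.0462 to 0.415 over 18 alternatives. At 3 wpi Tfrc was at 104 ± 9.86 CPM in PBS (SD, n = 4), 95.2 ± 7.20 CPM in MSC (SD, n = 5) and 95.1 ± 13.1 CPM in IL-4 MSC mice (SD, n = 5).

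Slc11a1 (ENSMUSG00000026177, chr1:74375195-74386062, GRCm38, plus strand) was at 2.21, 2.13, 1.66, 1.91 and 3.89 CPM in Sham mice. At 1 wpi it was at 5.80, 7.48, 9.26, 7.80 and 4.56 CPM in PBS mice and at 6.01, 5.84, 10.7, 5.27 and 6.67 CPM in MSC mice. IL-4 MSC mice had 9.30, 8.07, 7.17, 7.49 and 7.03 CPM. All 15 injured mice at 1 wpi were above every Sham mouse, and the injured groups overlapped with each other. Over Sham the log2 fold change was 1.53 ± 0.21 (SE, adjusted p of 2.43e-06) in PBS, 1.51 ± 0.21 (SE, adjusted p of 2.2e-06) in MSC and 1.66 ± 0.21 (SE, adjusted p of 7.95e-08) in IL-4 MSC mice. Sham mouse 5 was the highest of its group, and without it these were 1.78, 1.76 and 1.93.

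Macrophage markers rose in the same mice as Slc11a1, Hmox1 and Ftl1. All 12 genes of that list were higher than Sham in each of the 3 injured groups at 1 wpi, beside 13.8% of all genes in PBS, 17.8% in MSC and 37.0% in IL-4 MSC mice. Their summed level was 174, 164, 164, 159.7 and 247 CPM in Sham mice, and 331, 408, 374, 342 and 326 CPM in PBS mice. MSC mice had 359, 366, 457, 354 and 370 CPM, and IL-4 MSC mice had 650, 641, 535, 589 and 510.4 CPM. The IL-4 MSC mice were above all others, and 9 of the 12 genes were higher in them than in PBS mice (17.4% of all genes) and 9 than in MSC mice (8.69% of all genes). Csf1r had the highest mean CPM of this list over the 34 libraries, and no gene of it was at 0 in all mice of a group. Astrocyte markers, led by Slc1a2, summed to 5463 ± 174 CPM in Sham, 6719 ± 193 CPM in PBS, 6789 ± 377 CPM in MSC and 6570 ± 349 CPM in IL-4 MSC mice (SD, n = 5 each), every injured mouse being above every Sham mouse. By the test, 6 of these 10 genes were higher than Sham in PBS, 6 in MSC and 7 in IL-4 MSC mice, where 1 was lower, beside the same shares of all genes against Sham, and none was at 0 in all mice of a group. Microglia markers are not reported here. The part of any of these cells, or of microglia, in the levels of the 10 genes was not tested.

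**Figure D2:**
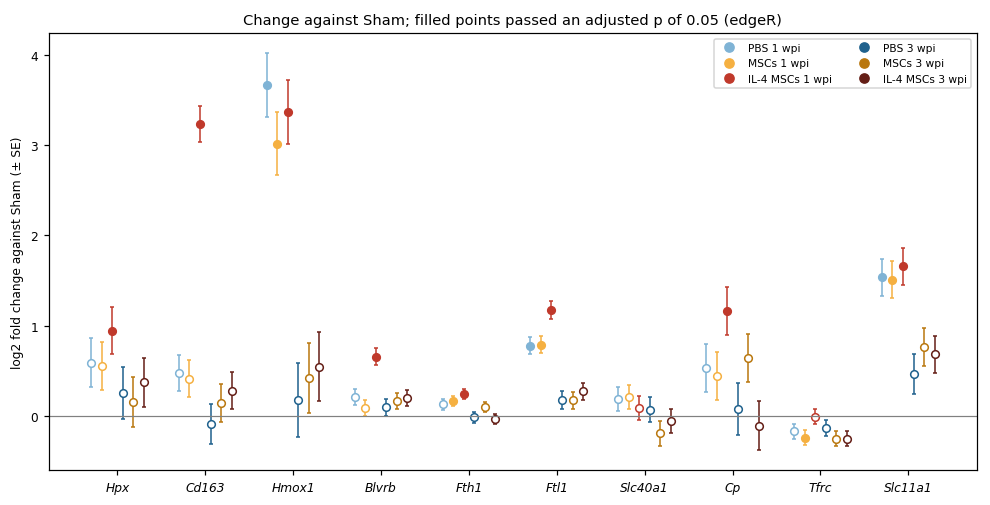
Log2 fold change of each of the 10 genes (horizontal axis) in the 6 injured groups against Sham, with bars of 1 SE from the edgeR fit. Filled points passed an adjusted p of 0.05 and open points did not; the filled points are all at 1 wpi, and Cd163 in IL-4 MSC mice (3.24) and Hmox1 in PBS, MSC and IL-4 MSC mice (3.67, 3.02 and 3.37) have the largest values.

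The comparisons between treatments at 1 wpi set naïve MSCs and IL-4 MSCs beside injury and injection alone. The naïve MSCs were not transfected, and no MSCs with another synthetic mRNA were sequenced. The effects of IL-4 and of transfection with synthetic mRNA therefore cannot be told apart. IL-4 MSC mice had 3 of the 10 above PBS mice (17.4% of all genes passed), and 3 above MSC mice (8.69% of all genes). They were Cd163, Ftl1 and Blvrb in both comparisons, which share the IL-4 MSC mice. Against PBS the log2 fold change was 2.76 ± 0.19 (SE, adjusted p of 5.41e-12) for Cd163, 0.40 ± 0.09 (SE, adjusted p of 0.00294) for Ftl1 and 0.45 ± 0.09 (SE, adjusted p of 0.000487) for Blvrb. Against MSCs it was 2.82 ± 0.20 (SE, adjusted p of 3.76e-12) for Cd163, 0.38 ± 0.09 (SE, adjusted p of 0.006) for Ftl1 and 0.57 ± 0.09 (SE, adjusted p of 2.51e-05) for Blvrb. The median of the 10 genes was 0.26 against PBS and 0.37 against MSCs, beside -0.004 and -0.008 over all genes.

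Other values between treatments at 1 wpi did not pass the test. For Cp the log2 fold change was 0.64 ± 0.26 (SE, adjusted p of 0.0919) against PBS and 0.73 ± 0.26 (SE, adjusted p of 0.0866) against MSCs. Without MSC mouse 3 the latter was 0.94 with an adjusted p of 0.0225, and with these 2 groups alone in the fit the p was 0.0159, and with a replicate block 0.0455, in a range of 0.0159 to 0.204 over 17 alternatives. For Cp against PBS the p was 0.00179 with these 2 groups alone in the fit, in a range of 0.00179 to 0.182. Tfrc in IL-4 MSC over MSC mice was at 0.23 ± 0.08 (SE, adjusted p of 0.0937), and without MSC mouse 1 at 0.29 with an adjusted p of 0.0242. With the striatum markers as a covariate the p of Tfrc was 0.039, in a range of 0.0242 to 0.272 over 17 alternatives. Fth1 in IL-4 MSC over PBS mice was at 0.12 ± 0.06 (SE, adjusted p of 0.158), and without PBS mouse 5 at 0.17 with an adjusted p of 0.0358, in a range of 0.0358 to 0.386 over 17 alternatives. Between MSC and PBS mice, 0 of the 10 genes passed in edgeR, 1 had an unadjusted p under 0.05 and 0 passed by DESeq2, beside 0.123% of all genes. The median of the 10 genes there was -0.05, beside 0.003 over all genes.

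At 3 wpi no injured group differed from Sham in any of the 10 genes by edgeR. In PBS mice 0 of the 10 passed (0.0292% of all genes), 1 had an unadjusted p under 0.05 and 0 passed by DESeq2. For MSC mice 0 passed (1.15% of all genes), 3 had an unadjusted p under 0.05 and 1 passed by DESeq2. For IL-4 MSC mice 0 passed (4.27% of all genes), 4 had an unadjusted p under 0.05 and 1 passed by DESeq2. The median log2 fold change of the 10 genes was 0.08, 0.16 and 0.24 in the 3 groups, beside 0.002, 0.003 and 0.01 over all genes. With the striatum markers as a covariate, the genes that passed in IL-4 MSC mice against Sham went from 472 higher and 260 lower to 84 and 25, and with these 2 groups alone in the fit to 73 and 29, so the share of all genes there depends on the fit.

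Slc11a1 was the gene that passed by DESeq2 in both MSC groups at 3 wpi. PBS mice had 2.73, 2.95, 4.12 and 3.25 CPM, MSC mice 3.85, 3.58, 3.90, 3.53 and 5.30 CPM and IL-4 MSC mice 4.38, 4.303, 3.36, 3.04 and 3.93 CPM. Sham mouse 5, at 3.89 CPM, lay within each of these groups, and the other 4 Sham mice lay below them all. Over Sham its log2 fold change was 0.77 ± 0.21 (SE) in MSC mice, with an adjusted p of 0.0642 by edgeR and 0.0188 by DESeq2. For IL-4 MSC mice it was 0.68 ± 0.21 (SE), with an adjusted p of 0.0582 by edgeR and 0.027 by DESeq2. Without Sham mouse 5 the values were 1.01 (adjusted p of 0.00459) and 0.93 (adjusted p of 0.0073). Over 18 alternatives each, the adjusted p ranged from 0.00459 to 0.404 and from 0.0073 to 0.412. In IL-4 MSC mice Tfrc was at -0.25 ± 0.08 (SE, adjusted p of 0.0789), and without IL-4 MSC mouse 2 at -0.32 with an adjusted p of 0.0176, in a range of 0.0176 to 0.623.

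Between the treatments at 3 wpi, no gene of the 10 passed by edgeR. In IL-4 MSC against PBS mice 0 passed, 0 had an unadjusted p under 0.05 and 0 passed by DESeq2 (2.94% of all genes). In IL-4 MSC against MSC mice 0 passed, 2 had an unadjusted p under 0.05 and 0 passed by DESeq2 (3.47% of all genes). In MSC against PBS mice 0 passed, 0 had an unadjusted p under 0.05 and 0 passed by DESeq2 (0.0817% of all genes). The shares for IL-4 MSC mice also depend on the fit. Against PBS, 371 genes higher and 133 lower became 4 and 1 with the striatum markers as a covariate, and against MSCs 0 genes higher and 1 lower were left of the 3.47%. With only the compared groups in the fit, no gene of the whole table passed in either comparison. The medians of the 10 genes were 0.10, 0.07 and 0.10, beside 0.006, 0.00 and 0.004 over all genes. Cp in IL-4 MSC over MSC mice was at -0.75 ± 0.27 (SE, adjusted p of 0.113), and without MSC mouse 5 at -0.10 (adjusted p of 0.842), in a range of 0.062 to 0.842 over 17 alternatives.

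Each treatment was then compared between 3 and 1 wpi. In PBS mice 3 of the 10 fell and 0 rose (5.51% of all genes passed), namely Hmox1, Ftl1 and Slc11a1. Hmox1 fell by 3.49 ± 0.38 (SE) on the log2 scale (adjusted p of 6.99e-07), Ftl1 by a log2 fold change of -0.60 ± 0.10 (SE, with an adjusted p of 0.000189) and Slc11a1 by one of -1.07 ± 0.21 (SE, adjusted p of 0.00131). Each PBS mouse at 3 wpi was below every PBS mouse at 1 wpi in these 3 genes, and also in Cd163, whose log2 fold change of -0.57 ± 0.22 (SE) had an adjusted p of 0.148. With these 2 groups alone in the fit the p of Cd163 was 0.00664, in a range of 0.00664 to 0.301 over 16 alternatives.

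In MSC mice the count was also 3 fallen and 0 risen (6.15% of all genes). Hmox1 had a log2 fold change of -2.60 ± 0.34 (SE, with an adjusted p of 5.4e-06), Ftl1 of -0.62 ± 0.10 (SE, adjusted p of 5.52e-05) and Slc11a1 of -0.74 ± 0.20 (SE, adjusted p of 0.0185). The groups overlapped in Slc11a1 only by MSC mouse 5 at 3 wpi. Without MSC mouse 3 at 1 wpi, the value of Slc11a1 was -0.53 and its adjusted p 0.121, and with these 2 groups alone in the fit the p was 0.0617, in a range of 0.00553 to 0.121 over 17 alternatives. For Cd163 the log2 fold change was -0.27 ± 0.20 (SE, adjusted p of 0.543), and without MSC mouse 5 at 3 wpi it was -0.65 with an adjusted p of 0.00769, in a range of 0.00769 to 0.802 over 17 alternatives. Cp was at 0.20 ± 0.26 (SE, adjusted p of 0.771) with MSC mouse 5 at 3 wpi and at -0.47 (adjusted p of 0.0582) without it, in a range of 0.0582 to 0.911.

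In IL-4 MSC mice 8 of the 10 fell and 0 rose (33.0% of all genes). Cd163 had a log2 fold change of -2.96 ± 0.20 (SE, with an adjusted p of 3.67e-13), Hmox1 of -2.82 ± 0.34 (SE, adjusted p of 5.89e-08) and Cp of -1.28 ± 0.27 (SE, adjusted p of 0.000322). Ftl1 was at -0.90, Slc11a1 at -0.98, Blvrb at -0.46 and Fth1 at -0.27, with adjusted p of 5.1e-09, 0.000218, 0.000149 and 0.000243. In these genes and in Tfrc each mouse at 3 wpi was below every mouse at 1 wpi. The share of all genes whose mice separate in this way was not counted. Tfrc also fell, with a log2 fold change of -0.24 ± 0.08 (SE, with an adjusted p of 0.0265). The adjusted p of Tfrc was 0.0502 without IL-4 MSC mouse 1 at 1 wpi, 0.0826 without IL-4 MSC mouse 4 at 3 wpi and 0.13 with the striatum markers as a covariate, in a range of 0.00331 to 0.13 over 17 alternatives. Hpx was at -0.57 ± 0.25 (SE, adjusted p of 0.0773). It was at -0.70 (adjusted p of 0.0379) without IL-4 MSC mouse 4 at 1 wpi and at -0.88 (adjusted p of 0.00843) without IL-4 MSC mouse 5 at 3 wpi, in a range of 0.00843 to 0.191. The median of the 10 genes from 1 to 3 wpi was -0.40 in PBS, -0.33 in MSC and -0.74 in IL-4 MSC mice, beside 0.009, 0.012 and 0.025 over all genes.

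Whether a treatment difference changed between the weeks was tested directly. The difference between IL-4 MSC and PBS mice was larger at 1 wpi than at 3 wpi in 1 of the 10 genes (4.72% of all genes passed), Cd163, by 2.39 ± 0.29 (SE) on the log2 scale (adjusted p of 2.26e-06). Without PBS mouse 4 at 1 wpi Blvrb also passed, at 0.43 with an adjusted p of 0.0447, in a range of 0.0447 to 0.229 over 26 alternatives. Cp, at 0.82 ± 0.39 (SE, adjusted p of 0.26), passed with only these groups in the fit (adjusted p of 0.00597), in a range of 0.00597 to 0.423. The log2 fold change of IL-4 MSC over MSC mice was higher at 1 wpi in 3 of the 10 genes (7.86% of all genes). These were Cd163 at 2.69 ± 0.28 (SE, adjusted p of 1.21e-07), Cp at 1.48 ± 0.37 (SE, adjusted p of 0.0109) and Blvrb at 0.54 ± 0.13 (SE, adjusted p of 0.00701). For Cp the sign changed, from 0.73 at 1 wpi to -0.75 at 3 wpi, and the latter was -0.10 without MSC mouse 5. Without MSC mouse 5 at 3 wpi, the change between weeks of Cp was 0.84 with an adjusted p of 0.0127. With the striatum markers as a covariate it was 1.30 with an adjusted p of 0.0521, in a range of 0.00312 to 0.0521 over 27 alternatives. Fth1, at 0.21 ± 0.08 (SE, adjusted p of 0.104), had an adjusted p of 0.0327 without MSC mouse 3 and of 0.0463 without IL-4 MSC mouse 2, both at 3 wpi, in a range of 0.0327 to 0.212 over 27 alternatives. For the difference between MSC and PBS mice, 0 of the 10 genes passed by edgeR, 0 had an unadjusted p under 0.05 and 0 passed by DESeq2, beside 0% of all genes.

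Counts assigned to haemoglobin genes were looked at alongside the clearance genes. Of the 10 red cell genes listed, 9 were in the table and 6 were tested, and Hba-a2 had the highest mean CPM of them over the 34 libraries. Hba-a2, an alpha-globin gene, was at 167, 264, 222, 234 and 68.3 CPM in the IL-4 MSC mice at 1 wpi. PBS mice had 8.18, 1.39, 8.60, 11.7 and 4.16 CPM, and MSC mice 2.60, 16.5, 8.004, 13.7 and 8.46 CPM. Sham mice had 5.08, 5.91, 3.801, 7.07 and 0.646 CPM. Each IL-4 MSC mouse at 1 wpi was far above every other mouse of that week and every Sham mouse. Over Sham, Hba-a2 had a log2 fold change of 5.32, with an adjusted p of 1.65e-07.

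The split of the red cell genes below was chosen after their values were seen. The other red cell genes did not follow Hba-a2. Hba-a1, the other alpha-globin gene, was lower in IL-4 MSC mice at 1 wpi (0.371 ± 0.16 CPM, SD, n = 5) than in Sham (1.42 ± 0.807 CPM, SD, n = 5), with a log2 fold change of -2.01 and an adjusted p of 0.0417. The beta-globin gene Hbb-bs was at 3.08 ± 1.29 CPM beside 4.56 ± 2.56 CPM in Sham (SD, n = 5 each; adjusted p of 0.541), and Hbb-bt at 0.419 ± 0.337 CPM beside 1.08 ± 0.698 CPM (SD, n = 5 each; adjusted p of 0.138). Without Hba-a2, the 8 other red cell genes summed to 8.39, 4.46, 5.55, 4.75 and 6.27 CPM in the IL-4 MSC mice at 1 wpi, and to 10.6, 10.6, 7.28, 13.2 and 2.88 CPM in the Sham mice. PBS mice at 1 wpi had 13.02, 3.64, 14.5, 20.8 and 9.24 CPM, and MSC mice 6.77, 25.9, 13.4, 21.2 and 14.5 CPM. The sums of these 8 genes overlapped between all groups at 1 wpi and Sham. The rise of Hba-a2 was therefore not shared by the beta-globin genes. Whether the counts assigned to Hba-a2 come from transcripts of the mouse gene or from the synthetic mRNA of the IL-4 MSCs was not tested. How reads that fit both alpha-globin genes were divided between Hba-a1 and Hba-a2 was not tested either. The lower counts of Hba-a1 are therefore not read as a fall of its transcripts. The counts assigned to Hba-a2 are not read here as a measure of haemoglobin expression or of blood.

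**Figure D3:**
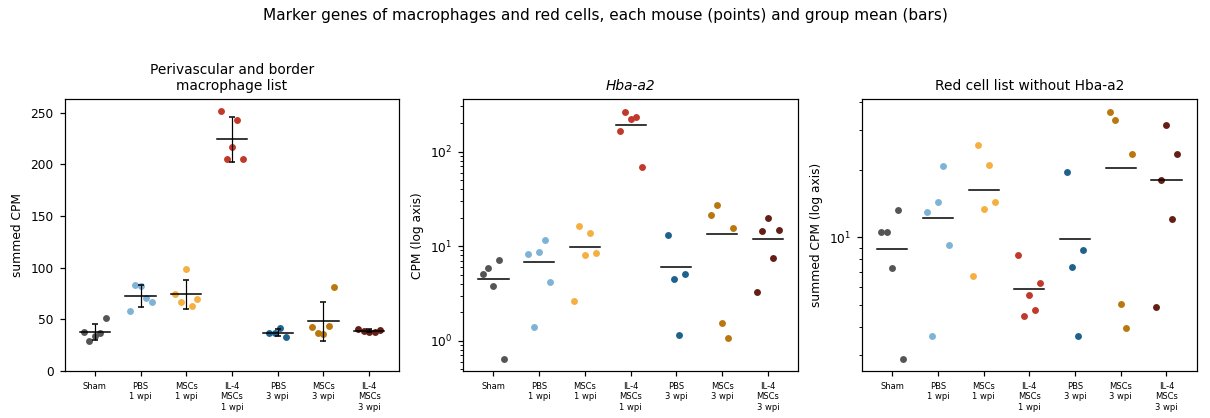
Summed CPM of the perivascular and border macrophage markers (left, linear axis, mean and SD), CPM of Hba-a2 (middle, log axis, mean) and summed CPM of the other 8 red cell genes (right, log axis, mean) in each mouse, by group. In IL-4 MSC mice at 1 wpi the macrophage sums reach 205 to 252 CPM and Hba-a2 68.3 to 264 CPM, while the other red cell genes stay at 4.46 to 8.39 CPM.

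Markers of other cells were summed in the same way. Neuron markers, led by Snap25, were at 7803 ± 217 CPM in Sham, 7104 ± 250 CPM in PBS, 7079 ± 153 CPM in MSC and 6825 ± 180 CPM in IL-4 MSC mice (SD, n = 5 each), every injured mouse at 1 wpi being below every Sham mouse. Of these 10 genes, 4 were lower and 0 higher than Sham in PBS, 4 and 0 in MSC and 8 and 0 in IL-4 MSC mice, beside 13.8%, 17.8% and 37.0% of all genes. These markers fell where genes of the 10 rose, and their part was not tested. The neutrophil list, led by Cxcr2, summed to 9.54 ± 1.18 CPM in Sham, 12.8 ± 5.15 CPM in PBS, 14.5 ± 5.28 CPM in MSC and 17.1 ± 2.93 CPM in IL-4 MSC mice (SD, n = 5 each). Of its 7 genes tested, 1 was higher than Sham in PBS, 2 in MSC and 2 in IL-4 MSC mice, with the same shares of all genes. Elane was at 0 in all IL-4 MSC mice at 1 wpi and all MSC mice at 3 wpi, and Ly6g in all IL-4 MSC mice at 3 wpi. The endothelial list, led by Slc2a1, summed to 382 ± 26.3 CPM in Sham, 407 ± 15.6 CPM in PBS, 432 ± 14.3 CPM in MSC and 532 ± 27.5 CPM in IL-4 MSC mice (SD, n = 5 each). By the test, 8 of its 10 were above Sham in IL-4 MSC mice, 1 in PBS mice and 2 in MSC mice, with the same shares of all genes. Fibroblast and meningeal markers summed to 174 ± 31 CPM in Sham, 226 ± 33 CPM in PBS, 467 ± 164 CPM in MSC and 419 ± 44.7 CPM in IL-4 MSC mice (SD, n = 5 each). Pdgfra, the most abundant of them, differed little, with means of 65.4, 76.5, 73.15 and 76.7 CPM in these groups. The part of RNA from the injected stromal cells in these sums, or in the levels of the 10 genes, was not tested. The 10 genes of this fibroblast and meningeal list went both ways, with the same shares of all genes. In PBS mice 3 were higher and 0 lower than Sham, in MSC mice 3 and 1 and in IL-4 MSC mice 5 and 3. The choroid plexus and ependyma markers, led by Ttr, varied from 38.3 to 1576 CPM between mice. Of these 11 genes, 1 was higher in IL-4 MSC mice at 1 wpi than in Sham, beside 37.0% of all genes that passed.

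Other genes of haem handling were compared with Sham at 1 wpi, where 13.8% of all genes passed in PBS, 17.8% in MSC and 37.0% in IL-4 MSC mice. Of the 10 listed beside the genes above, 4 were higher and 2 lower in IL-4 MSC mice than in Sham, 1 was higher in MSC mice and 0 passed by edgeR in PBS mice, where 3 had an unadjusted p under 0.05 and 0 passed by DESeq2. Between the treatments, 2 were higher and 1 lower in IL-4 MSC than in PBS mice (17.4% of all genes), and 0 passed by edgeR between IL-4 MSC and MSC mice (3 had an unadjusted p under 0.05 and 0 passed by DESeq2, beside 8.69% of all genes). Hp, which encodes haptoglobin, had 18 to 44 counts in IL-4 MSC mice and 2 to 14 in Sham. Its log2 fold change in IL-4 MSC mice was 2.10 ± 0.57 (SE, adjusted p of 0.00387). In MSC mice it was 1.69 ± 0.58 (SE, adjusted p of 0.0421), which was lost without any of Sham mice 1, 2, 3 and 4 (adjusted p of 0.102, 0.0935, 0.0985 and 0.0658) or MSC mice 2, 3 and 4 (0.0596, 0.201 and 0.0604). It was also lost with these 2 groups alone in the fit (0.0569) and with the 2 Sham mice of 1 week alone (0.127), in a range of 0.0162 to 0.201 over 18 alternatives. Flvcr2, a relative of the haem exporter Flvcr1, was at 0.37 ± 0.13 (SE, adjusted p of 0.0237) in IL-4 MSC mice. Its adjusted p was 0.0588 and 0.0525 without Sham mouse 1 or 2 and 0.0689 without IL-4 MSC mouse 2, and 0.344 with the 2 Sham mice of 1 week alone, in a range of 0.0085 to 0.344 over 18 alternatives.

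Of the iron transport and storage genes listed, 18 were tested. In PBS mice at 1 wpi 4 were higher and 0 lower than in Sham, in MSC mice 4 and 0, and in IL-4 MSC mice 6 and 1, beside 13.8%, 17.8% and 37.0% of all genes. The ferric reductase gene Steap4 had log2 fold changes of 2.53 ± 0.59 (SE, with an adjusted p of 0.00282), 2.60 ± 0.59 (SE, adjusted p of 0.0016) and 3.30 ± 0.58 (SE, adjusted p of 3.08e-05) in the 3 groups. For PBS mice the adjusted p of Steap4 was 0.0531 with the 2 Sham mice of 1 week as the only controls, in a range of 0.000211 to 0.0531 over 18 alternatives. Steap3, the reductase of the transferrin cycle, was at 0.45, 0.63 and 0.85 with adjusted p of 0.000412, 2.86e-06 and 2.02e-09. Lcn2, which encodes a protein that binds iron-carrying siderophores, was at 4.35 ± 1.22 (SE, adjusted p of 0.00502) in IL-4 MSC mice. Lcn2 varied from 0.0615 to 7.14 CPM among the Sham mice, and without Sham mouse 5 the log2 fold change of Lcn2 in IL-4 MSC mice was 7.60. Lcn2 was at 15.5 CPM in PBS mice (7.22 to 20.6 CPM, each above every Sham mouse) and at 13.6 CPM in MSC mice (3.33 to 37.9 CPM, overlapping with Sham), and neither passed against Sham in edgeR. The adjusted p of Lcn2 was 0.0666 in PBS mice (range 0.0083 to 0.142 over 18 alternatives) and 0.0744 in MSC mice (range 0.0119 to 0.273). Trf, the gene of transferrin, rose by 0.38 ± 0.10 (SE, adjusted p of 0.00584) in PBS and by 0.45 ± 0.10 (SE, adjusted p of 0.000767) in MSC mice. IL-4 MSC mice had the highest level of Trf, 572 ± 30.2 CPM against 449 ± 76.7 CPM in PBS, 477 ± 41.7 CPM in MSC and 337 ± 33.5 CPM in Sham mice (SD, n = 5 each), and it was higher than Sham by the test in that group too.

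Of 12 regulators of iron and haem genes tested, 3 were higher and 0 lower than Sham at 1 wpi in PBS mice, 3 and 0 in MSC mice and 3 and 1 in IL-4 MSC mice, beside 13.8%, 17.8% and 37.0% of all genes. The median log2 fold change of the list in IL-4 MSC mice was 0.005, beside -0.018 over all genes. Bach1, the haem-sensing repressor of Hmox1, was at 19.4 ± 0.82 CPM in Sham, 23.0 ± 1.67 CPM in PBS, 23.7 ± 0.70 CPM in MSC and 36.3 ± 2.03 CPM in IL-4 MSC mice (SD, n = 5 each). Its log2 fold change over Sham was 0.21 ± 0.05, 0.24 ± 0.05 and 0.83 ± 0.05 (SE), with adjusted p of 0.00209, 0.000386 and 5.81e-15. Hfe, whose protein binds the transferrin receptor, was at 0.51, 0.63 and 1.42, with adjusted p of 0.000139, 4.15e-06 and 5.4e-14. Nfe2l2, the gene of the activator NRF2, was at 0.65, 0.69 and 0.99, with adjusted p of 1.08e-06, 2.55e-07 and 1.76e-11. Between the treatments at 1 wpi, 3 of the 12 were higher and 2 lower in IL-4 MSC than in PBS mice (17.4% of all genes), and 3 were higher and 0 lower than in MSC mice (8.69% of all genes). The higher genes were Bach1, Hfe and Nfe2l2, over PBS by 0.62, 0.91 and 0.34 (adjusted p of 1.82e-11, 2.74e-09 and 0.00258), and over MSCs by 0.59, 0.79 and 0.30 (adjusted p of 7.41e-11, 6.77e-08 and 0.0114).

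The counts in this paragraph stand beside 13.8% of all genes in PBS, 17.8% in MSC and 37.0% in IL-4 MSC mice. Among 13 targets of NRF2 and BACH1 other than the 10 genes, 2 were higher and 0 lower than Sham at 1 wpi in PBS mice, 3 and 0 in MSC mice and 7 and 1 in IL-4 MSC mice. Osgin1 had the largest value, 1.04 ± 0.30 (SE, adjusted p of 0.00604) in IL-4 MSC mice. With the 2 Sham mice of 1 week as the only controls, that p was 0.117, in a range of 0.000674 to 0.117 over 18 alternatives. The peroxiredoxin gene Prdx1 was at 0.24, 0.25 and 0.33 in PBS, MSC and IL-4 MSC mice, with adjusted p of 0.000994, 0.000381 and 2.27e-06. In PBS mice the p of Prdx1 was 0.0762 against the 2 Sham mice of 1 week alone, in a range of 0.000124 to 0.0762 over 18 alternatives. The 2 other targets higher in MSC mice, Nqo1 and Gsr, passed in 9 and 12 of 18 alternatives, with adjusted p of 0.0226 to 0.18 and 0.00337 to 0.106. Nqo1 was lost without any of Sham mice 1, 3 and 5 or MSC mice 1, 2 and 3 (0.0772, 0.101, 0.0905, 0.128, 0.0759 and 0.0653). Gsr was lost without any of Sham mice 3, 4 and 5 or MSC mice 1 and 3 (0.0613, 0.0778, 0.0625, 0.104 and 0.106). In PBS mice Gsr was lost without PBS mouse 4 (0.0505) and with only the 2 groups in the fit (0.059), in a range of 0.00199 to 0.059 over 18 alternatives. Of 12 genes linked to ferroptosis, a cell death driven by iron, 1 was higher and 0 lower in PBS mice, 2 and 1 in MSC mice and 5 and 1 in IL-4 MSC mice. This list holds Tfrc, which is the lower gene in MSC mice and passed there in only 9 of 18 alternatives. Alox15, a lipoxygenase, was at 1.13 to 2.29 CPM in IL-4 MSC mice and at 0.0305 to 0.12 CPM, or 1 to 5 counts, in Sham mice. Its log2 fold change was 4.34 ± 0.40 (SE, adjusted p of 1.54e-10).

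Of 11 genes of haem synthesis, 1 was higher and 0 lower in PBS mice, beside 13.8% of all genes. The higher gene in PBS mice, Ppox (adjusted p of 0.0289), was lost with only the 2 groups in the fit (0.0916), with the 2 Sham mice of 1 week alone (0.24) and without Sham mouse 2 (0.0774) or PBS mouse 2 or 5 (0.0943 and 0.0847), in a range of 0.00519 to 0.24 over 18 alternatives. In IL-4 MSC mice Tmem14c was higher than Sham, which passed in 12 of 18 alternatives, with adjusted p of 0.00346 to 0.151. It was lost without Sham mouse 4 or IL-4 MSC mouse 2 or 3 (0.0573, 0.07 and 0.0671). In MSC mice 0 passed by edgeR, 1 had an unadjusted p under 0.05 and 0 passed by DESeq2. Cpox, a late enzyme of the pathway, was lower in IL-4 MSC mice than in Sham, at -0.17 ± 0.03 (SE, adjusted p of 8.14e-05), and with library size alone as the scale the value for Cpox was -0.10.

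Some of the 10 genes share a regulatory element in their transcripts. The iron-responsive element is a hairpin bound by iron regulatory proteins when iron is scarce: in a 5′ UTR it holds back translation, and in a 3′ UTR it protects the transcript. A search of the GENCODE vM21 transcripts (GRCm38) for a C, 5 bases, the loop CAGTGN and 5 bases that pair with the first, found it in Fth1, Ftl1, Slc40a1 and Tfrc. It was present in the 5′ UTR of 28 of 20709 genes (0.135%) and in the 3′ UTR of 127 (0.613%). The sites are shown because these 4 genes hold the element and the other 6 do not, with the loop in capitals. They lie at chr19:9982732-9982761 on the plus strand for Fth1, chr7:45459778-45459807 on the minus strand for Ftl1 and chr1:45925464-45925493 on the minus strand for Slc40a1. Those of Tfrc lie on the plus strand at chr16:32631219-32631248, chr16:32631598-32631627, chr16:32631663-32631692 and chr16:32631710-32631739. Protein was not analysed here.
Fth1 5′ UTR: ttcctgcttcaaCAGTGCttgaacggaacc
Ftl1 5′ UTR: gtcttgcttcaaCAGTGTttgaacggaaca
Slc40a1 5′ UTR: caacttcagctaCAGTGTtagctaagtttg
Tfrc 3′ UTR site 1: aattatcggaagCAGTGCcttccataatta
Tfrc 3′ UTR site 2: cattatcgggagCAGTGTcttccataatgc
Tfrc 3′ UTR site 3: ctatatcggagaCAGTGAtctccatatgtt
Tfrc 3′ UTR site 4: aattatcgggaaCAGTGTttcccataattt

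Promoter windows of RefSeq (GRCm38.p6) were at hand for 8 of the 10 genes, with Hmox1 and Slc40a1 missing. On both strands, the antioxidant response element core TGACNNNGC matched once in the window of Hpx and in none of the others, beside 12.4% of 32851 promoters. The STAT6 motif TTCNNNNGAA matched once for Blvrb, beside 6.95% of promoters. The loop letters CAGTGN alone matched once for Slc11a1 and for Ftl1 and 2 times for Hpx, beside 34.6% of promoters. A match is a description of letters, not a bound site.

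For 9 of the 10, the genes whose log2 CPM followed them most closely over the 34 libraries are given as a description, since the libraries share their groups. Cd163 was most like Mrc1 (Pearson r of 0.971) and Maf (0.964). Hmox1 was most like Uhrf1 (0.954) and Tgm1 (0.953). For Slc11a1 they were Mpeg1 (0.965) and Gm49339 (0.961). Ftl1 followed Vim (0.970) and S100a6 (0.970), and Fth1 followed Apod (0.930) and Mt2 (0.904). For Blvrb they were Crip1 (0.870) and Psap (0.849). Lower values were found for Hpx with Cryba4 (0.772) and Nradd (0.762), Slc40a1 with Tceanc (0.765) and Haus2 (0.741), and Tfrc with Ddx3x (0.765) and Rab11fip5 (0.720).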

How the data were processed

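Total RNA of 35 mice was sequenced. Per the labels and the study's methods, the authors trimmed reads with cutadapt 2.4, pseudo-aligned them with kallisto 0.46 to protein-coding mouse transcripts (GRCm38) and deposited 1 table of 21203 genes, holding expected counts (estimated reads per gene, expected_counts, not normalised) and TPM. The authors left out 1 PBS library of 3 weeks, so 34 libraries remained. Their 63 columns of comparisons were not used here.

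CPM is the expected count divided by the library's sum, scaled so that each library has the same total. It holds no TMM scaling, unlike the tests. For IL-4 MSC mice at 1 wpi against Sham, library size alone gave 4255 genes higher and 1258 lower, and TMM 3157 and 3173. Small differences in CPM can therefore look larger there than in the test. Tfrc had means of 117.2 CPM in those mice and 112.5 CPM in Sham, with a log2 fold change of -0.013. Rounded counts were fitted in edgeR 4.0.16 (R 4.3.3) with TMM scaling, filterByExpr, 1 coefficient per group, the quasi-likelihood test (two-sided) and Benjamini-Hochberg adjustment over all 17131 genes tested, with calls at an adjusted p of 0.05. The SE is the log2 fold change divided by the square root of F. Of the comparisons, 15 are between 2 groups and 3 are interactions.

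The alternatives were DESeq2 1.42.0 (Wald test), DESeq2 size factors, library size alone, no filter, only the compared groups, Sham mice of the same week, a replicate block, a striatum marker covariate, and leaving out each mouse.

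The replicate numbers did not pair the mice: Pearson r of the residuals between mice with the same number in different groups had a median of 0.0118 over 99 pairs, and 5 of 34 mice were closest to a mouse of the same number. Within groups, r across genes was 0.981 to 0.994 in 66 pairs, where genes are not independent replicates.

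Members and lists were chosen with earlier results of these data known. From each pathway list at most the 3 genes with the largest absolute change among those called in a comparison are named, and the 2 most alike genes are given for 9 members. Ftmt, Mfsd7b, Hfe2 and Ahsp of the lists were not in the table. Cd163, Slc11a1, Ftl1, Cp and Fth1 had fractional counts, from reads shared with other transcripts, in 34, 34, 33, 32 and 27 libraries. The depth of the libraries was 29838423 to 41554322 counts.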

Additional observations from a re-analysis of the deposited data

Results flagged for a closer look

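In 8 of the 70 pairs of gene and group, 1 mouse lay far from the others by Dixon's rule, where chance flags about 1 in 20 groups. Hmox1 in IL-4 MSC mouse 1 at 1 wpi was at 55.9 CPM, and the other 4 mice were at 23.6 to 31.6 CPM. In MSC mouse 5 at 3 wpi, 3 genes stood apart: Cd163 at 7.94 CPM (others 2.47 to 3.79 CPM), Cp at 76.7 CPM (others 18.8 to 20.7 CPM) and Slc11a1 at 5.30 CPM (others 3.53 to 3.90 CPM). Slc11a1 was at 3.89 CPM in Sham mouse 5 (others 1.66 to 2.21 CPM) and at 10.7 CPM in MSC mouse 3 at 1 wpi (others 5.27 to 6.67 CPM). Cp in IL-4 MSC mouse 4 at 3 wpi was the lowest of its group at 15.95 CPM (others 18.7 to 19.3 CPM). Hpx in IL-4 MSC mouse 5 at 3 wpi was at 0.55 CPM (others 0.215 to 0.308 CPM).

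A treatment difference that was not the same at 1 and 3 wpi, by the test of that difference in the edgeR fit, was found 4 times. Between IL-4 MSC and PBS mice, Cd163 differed more at 1 wpi by 2.39 on the log2 scale (adjusted p of 2.26e-06). Between IL-4 MSC and MSC mice, the log2 fold change was higher at 1 wpi by 2.69 for Cd163 (adjusted p of 1.21e-07). It was higher by 0.54 for Blvrb (adjusted p of 0.00701) and by 1.48 for Cp (adjusted p of 0.0109). For Cp this was a change of sign, from 0.73 at 1 wpi to -0.75 at 3 wpi. Without MSC mouse 5 at 3 wpi, the 1.48 of Cp was 0.84.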

How the results depend on the processing

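Of 3353 log2 fold changes of the 10 genes under an alternative setting, 3300 kept their side of the threshold, 31 passed it only under the alternative and 22 no longer passed it. Of 40 called values among 180, 5 were lost under at least 1 setting, and 20 values that were not called passed under at least 1. With DESeq2, 1 of the 10 genes passed in MSC mice and 1 in IL-4 MSC mice at 3 wpi against Sham, beside 0 in edgeR, and 4 for MSC mice at 3 against 1 wpi, beside 3. With only the compared groups in the fit, 5 passed in PBS mice at 1 wpi against Sham (beside 3), 1 in IL-4 MSC mice at 3 wpi against Sham (beside 0) and 2 for the change between weeks of the difference between IL-4 MSC and PBS mice (beside 1). Apart from these and from leaving out a mouse, a count moved by at most 1. The cause was not tested.

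Leaving out each mouse in turn gave 3 to 5 genes for PBS and 3 to 5 for MSC mice at 1 wpi against Sham, 0 to 1 for MSC and 0 to 1 for IL-4 MSC mice at 3 wpi against Sham, and 1 to 2 for the change between weeks of IL-4 MSC against PBS. At 1 wpi the count was 3 to 4 for IL-4 MSC against PBS and 3 to 4 against MSC mice. Between 3 and 1 wpi it was 2 to 4 in MSC and 7 to 9 in IL-4 MSC mice. The change between weeks of IL-4 MSC against MSC gave 3 to 4. For IL-4 MSC mice at 1 wpi against Sham it was 8 in each of 10 fits. With a replicate block, 16 of the 18 counts were as reported, and the count was 4 for IL-4 MSC against MSC mice at 1 wpi and 4 for MSC mice at 3 against 1 wpi (beside 3 each). The change between weeks of Lcn2 in IL-4 MSC against MSC mice was 4.85, between -0.57 (without MSC mouse 5 at 3 wpi) and 5.73 (without MSC mouse 3 at 1 wpi); the cause was not tested. Depth limits Hpx most, at 6 to 21 counts.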
